A study of Mus musculus with 9 samples.

Results

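The genes described here are 35 genes of granulocytes, monocytes and macrophages, chosen by name, out of 22180 genes with a probe set that carries a single gene symbol on the array. They comprise 13 genes of granule and granulocyte proteins, 10 genes of phagocyte receptors and lysosomal proteins, 2 subunits of the phagocyte oxidase, 4 receptors of colony-stimulating factors, 4 transcription factors, and the myeloid surface and cytosolic genes Ly6c2 and Plac8. They were measured in haematopoietic stem cells (HSCs) from the bone marrow of mice with and without deletion of Bcl11a, a zinc finger repressor of transcription needed for B cell and HSC function. A gene with several probe sets was represented by the one with the highest mean over the 9 arrays.

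The 3 genotypes had 3 biological replicates each, and 1 array was run per replicate. KO mice carried 2 floxed Bcl11a alleles (Bcl11a fl/fl) and Mx1-Cre, Het mice carried 1 floxed and 1 unfloxed allele (Bcl11a fl/wt) and Mx1-Cre, and WT mice carried 2 floxed alleles and no Cre. Mx1-Cre is switched on by interferon in blood cells and in several other tissues. All mice were 6 to 8 months old and received 5 doses of poly(I:C), an RNA mimic that induces interferon, so the WT mice share the interferon exposure and lack Cre: Cre and the loss of Bcl11a cannot be told apart in KO against WT. Marrow was Fc-blocked with an antibody to CD16/32, the products of the members Fcgr3 and Fcgr2b, and enriched for CD117. The sort gate took Lin-, Sca-1+, Kit+, CD48-, Flt3-, CD150+ cells that were YFP+ or YFP-. The labels do not tie YFP+ or YFP- cells to single arrays.

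Neutrophils carry their antimicrobial proteins in granules that are filled in sequence as the cells mature: primary granules first (Mpo, Elane, Prtn3, Ctsg), then secondary and tertiary granules (Ltf, Camp, Ngp, Lcn2, Mmp8, Mmp9), while S100a8 and S100a9 fill the cytosol. Monocytes and macrophages instead rely on receptors for microbial products and antibody-coated particles, and on lysosomes that digest what was taken up. Commitment to these lineages is driven by the transcription factors PU.1 (Spi1) and C/EBP alpha, and C/EBP epsilon drives the late granule genes. HSCs stand before all of these steps, and low levels of some myeloid transcripts in them have been described as lineage priming.

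Upstream sequences are shown for the 4 members that lead the contrast described below and for Lyz2. The sequences are the 250 bases before the gene start, taken from RefSeq on build GRCm38.p6 and printed 5′ to 3′ on the gene's strand. They lie at chr13:20793863-20794112 (+ strand) for Aoah, chr11:69666171-69666420 (- strand) for Cd68, chr3:90668821-90669070 (+ strand) for S100a8, chr3:90695722-90695971 (- strand) for S100a9 and chr10:117282273-117282522 (- strand) for Lyz2. Capitals mark matches, on either strand, to 3 motifs: the PU.1 core GAGGAA, the C/EBP motif TTGCNNAA and the BCL11A motif TGACCA.
Aoah: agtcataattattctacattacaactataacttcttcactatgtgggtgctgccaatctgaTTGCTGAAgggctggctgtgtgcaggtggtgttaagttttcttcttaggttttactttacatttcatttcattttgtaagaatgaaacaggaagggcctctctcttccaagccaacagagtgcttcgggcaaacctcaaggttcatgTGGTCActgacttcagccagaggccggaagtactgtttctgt
Cd68: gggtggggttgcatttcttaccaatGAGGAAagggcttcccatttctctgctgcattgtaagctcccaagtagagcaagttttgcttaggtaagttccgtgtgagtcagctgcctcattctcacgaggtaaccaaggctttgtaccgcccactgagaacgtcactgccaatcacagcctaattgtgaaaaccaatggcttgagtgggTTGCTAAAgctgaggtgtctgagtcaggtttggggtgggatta
S100a8: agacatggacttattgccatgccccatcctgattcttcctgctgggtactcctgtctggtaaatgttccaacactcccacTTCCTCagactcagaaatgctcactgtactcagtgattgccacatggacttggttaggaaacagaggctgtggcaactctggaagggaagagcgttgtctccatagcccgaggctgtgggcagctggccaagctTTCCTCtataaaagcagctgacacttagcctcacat
S100a9: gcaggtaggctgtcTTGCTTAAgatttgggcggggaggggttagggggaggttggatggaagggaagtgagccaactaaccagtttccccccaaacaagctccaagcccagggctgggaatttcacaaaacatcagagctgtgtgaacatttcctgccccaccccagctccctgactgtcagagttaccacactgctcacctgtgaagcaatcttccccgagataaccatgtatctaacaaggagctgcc
Lyz2: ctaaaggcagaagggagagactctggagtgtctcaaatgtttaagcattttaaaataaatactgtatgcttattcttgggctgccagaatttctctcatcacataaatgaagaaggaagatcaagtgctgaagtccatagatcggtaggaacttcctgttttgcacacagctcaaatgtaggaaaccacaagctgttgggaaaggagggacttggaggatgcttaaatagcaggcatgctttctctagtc

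In these windows Aoah had a C/EBP match at 189 to 182 bases before its start and a BCL11A match, on the other strand, at 42 to 37 bases. Cd68 had a PU.1 match at 225 to 220 bases and a C/EBP match at 43 to 36 bases. S100a8 had PU.1 matches on the other strand at 170 to 165 and 36 to 31 bases, and S100a9 had a C/EBP match at 236 to 229 bases. Lyz2 had no match to these letters within this window. Windows of 26 of the 35 members were used, 29 windows in all. Members on chromosome 18 (Cd14 and Csf1r) were left out by rule, and the count over all windows had no such rule. The PU.1 core stood in 18 of these 29 windows, against 23.3% of all 32851 windows in the table. The C/EBP motif stood in 10 of the 29, against 9.56% of all windows, and the BCL11A motif in 5, against 11.4%. The BCL11A matches belonged to Aoah, Cd33, Fcgr3 and Ly6c2. A match is a description of letters and shows no binding. In the RefSeq gene order S100a8 and S100a9 are direct neighbours on chromosome 3, as are Prtn3 and Elane on chromosome 10, with 0 coding genes between them.

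All values are log2 expression from the deposited RMA table, and a difference of 1 means 2-fold. Array medians lay between 3.95 and 4.15. The interquartile ranges of the arrays were 2.83, 2.80 and 2.42 in KO cells, 2.53, 2.39 and 2.77 in Het cells, and 2.22, 2.47 and 2.69 in WT cells. Transcripts known to be absent (Y-linked genes on arrays with high Xist, and Xist on the others) read 2.22 to 4.22, which gives the range in which an absent transcript reads on these arrays, although some Y-linked genes read as low as 3.86 where they were present. Of the probe sets for Bcl11a, the higher one read 7.82, 7.90 and 8.66 in KO cells, 8.34, 8.37 and 8.89 in Het cells, and 8.73, 8.81 and 8.38 in WT cells. The array labelled KO replicate 3 thus read within the WT range, and the other probe set differed by 0.07 between KO and WT. The sources used here do not say whether the probes lie in the deleted part of the gene, so these readings neither settle the label of that array nor show deletion on the others. The differences of the leading members are therefore given also without it. The 10 HSC marker genes with a probe set, Kit and Meis1 among them, read above the absent range on all 9 arrays, with list means of 7.79 to 8.47 in KO cells, 7.60 to 7.90 in Het cells and 6.44 to 7.30 in WT cells. The lowest HSC list mean, 6.44, came from WT replicate 1. That array also had the lowest interquartile range and, at 6.08, the highest mean of the granule members described below.

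Of the 35 members, 34 passed the filter on low values, and 1 of them, Aoah, changed between KO and WT cells at an adjusted p under 0.05 (limma, adjusted over all genes tested), where 0.0421% of the 16636 genes tested were called. At an unadjusted p under 0.05, 3 members were higher and 7 were lower, where 5.4% and 2.81% of all genes were. The KO and WT arrays did not overlap for 2 members that were higher (Aoah and Itgam) and 6 that were lower (S100a8, S100a9, Lyz2, Mmp8, Fcgr2b and Csf2rb), where 6.51% and 7.32% of all genes did not overlap. Without the array labelled KO replicate 3 these counts were 6 higher and 12 lower, where 13.3% and 18.2% of all genes did not overlap. Without WT replicate 1 they were 5 and 7 (9.46% and 11.1% of all genes), without KO replicate 2 they were 4 and 7 (9.92% and 10.8%), and without WT replicate 3 they were 2 and 12 (13.4% and 18.7%). The median difference over the members was -0.22, beside -0.04 over all genes tested, with 10 members higher and 25 lower by their means. Since each array holds a bulk sample, fewer cells of a type and less RNA per cell cannot be told apart in any of these values. Differences are quoted below where they reach 0.5 on the log2 scale, except where a genotype read within the absent range on every array, in which case a lower bound is given if the other genotype's mean lies above that range.

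**Figure D1:**
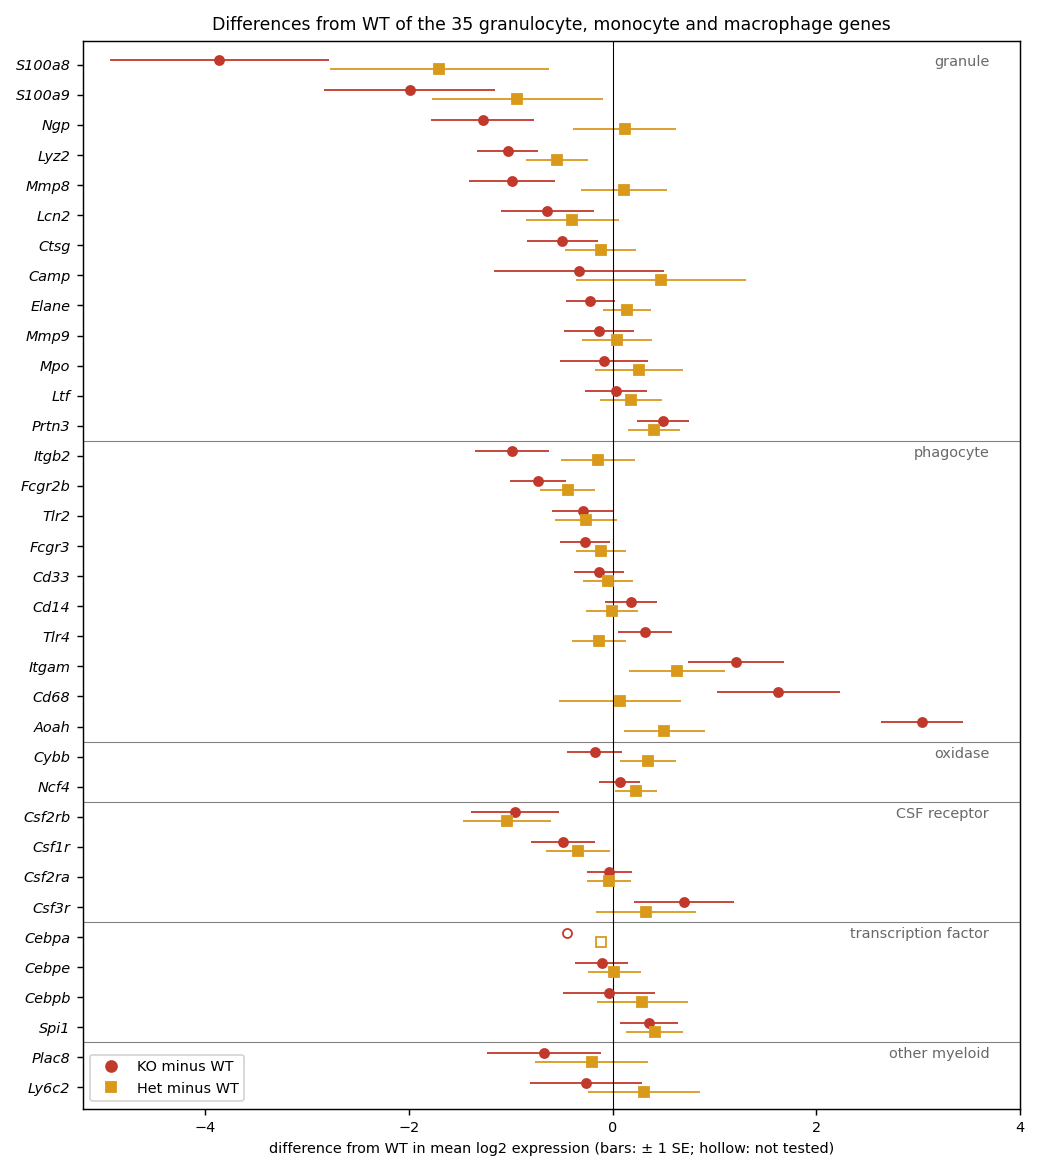
Difference in mean log2 expression of each of the 35 members from WT cells, for KO cells (circles) and Het cells (squares), with bars of 1 SE from the fit, grouped by class; hollow symbols mark Cebpa, which was not tested. Aoah stands furthest to the right in KO cells (3.04) and S100a8 furthest to the left (-3.86).

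The granule class was lower in KO cells by its means: 11 of its 13 members lay below WT and 2 above, with a median difference of -0.49. However, 0 of them passed the adjusted threshold in limma. At an unadjusted p under 0.05, 5 were lower and 0 higher, where 2.81% and 5.4% of all genes tested were. S100a8 and S100a9 encode the subunits of calprotectin, a calcium- and zinc-binding protein that makes up much of the neutrophil cytosol. S100a8 read 5.34, 6.74 and 2.31 in KO cells, 5.06, 8.74 and 7.07 in Het cells, and 8.97, 8.59 and 8.42 in WT cells. All KO arrays lay below all WT arrays, Het replicate 1 lay in the KO range and Het replicate 2 in the WT range, and the lowest value came from the array labelled KO replicate 3. That value, 2.31, lay in the absent range, which limits what the size of the difference means. The difference between KO and WT was -3.86 (SE 1.07, adjusted p = 0.410), and no gene among the 16636 tested had a lower KO-minus-WT difference. Without the array labelled KO replicate 3 it was -2.62 (adjusted p = 0.457). Het and WT cells differed by -1.70 (adjusted p = 0.992), and KO and Het cells by -2.16 (adjusted p = 0.998). These became -0.76 without Het replicate 1, for Het and WT, and -0.92 without the array labelled KO replicate 3, for KO and Het.

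S100a9 read 6.12, 7.22 and 6.30 in KO cells, 5.33, 9.51 and 7.97 in Het cells, and 9.16, 8.40 and 8.06 in WT cells. The KO arrays again lay below the WT arrays without overlap, and Het replicate 1 was lower than any KO array while Het replicate 2 was higher than any WT array. The difference between KO and WT was -1.99 (SE 0.839, adjusted p = 0.583), and -1.87 without the array labelled KO replicate 3. Het and WT differed by -0.94 (adjusted p = 0.992), but by 0.20 without Het replicate 1 and by -1.89 without Het replicate 2. KO and Het differed by -1.06 (adjusted p = 0.998), with -2.19 and -0.10 when the same arrays were left out. Within male mice KO and WT differed by -2.55 for S100a8 and by -1.73 for S100a9, and within female mice, where KO is the single array labelled KO replicate 3, by -6.39 and -2.31.

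Lyz2, the lysozyme of granulocytes and macrophages that cleaves bacterial cell walls, lay between 7.58 and 8.80 in KO cells, between 8.67 and 8.87 in Het cells, and between 9.20 and 9.46 in WT cells. Both KO and Het arrays stood below all WT arrays. KO and WT differed by -1.03 (SE 0.301, adjusted p = 0.427), or -0.69 without the array labelled KO replicate 3, and Het and WT differed by -0.55 (adjusted p = 0.992).

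Among the secondary granule genes, Ngp, a cystatin-like protein of neutrophil granules, read 3.34, 3.74 and 4.80 in KO cells, 4.77, 5.46 and 5.84 in Het cells, and 5.99, 5.50 and 4.22 in WT cells. KO replicates 1 and 2 lay below every other array, and the third KO array lay inside the WT range. The difference was -1.28 between KO and WT (SE 0.507, adjusted p = 0.566) and -1.40 between KO and Het (adjusted p = 0.998). Without the array labelled KO replicate 3, KO and WT differed by -1.70. KO replicates 1 and 2 and the KO mean of Ngp (3.96) lay in the absent range, which limits what these sizes mean. Mmp8, the neutrophil collagenase, lay between 2.80 and 3.28 in KO cells, between 3.56 and 4.91 in Het cells and between 3.54 and 4.79 in WT cells. The KO values all lay where absent transcripts read, and the mean values of Het (4.08) and WT cells (3.97) lay there too, so no size of a difference is given.

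Lcn2, which binds bacterial siderophores, differed by -0.64 between KO and WT (adjusted p = 0.714), and this rested on WT replicate 1 at 6.43, since without it the difference was -0.03. Camp, the precursor of the cathelicidin antimicrobial peptide, ranged from 2.89 to 4.66 in KO cells, from 2.91 to 6.19 in Het cells and from 3.06 to 5.27 in WT cells. KO and Het differed by -0.81 (adjusted p = 0.998), but by 0.0883 without Het replicate 2 and by -1.55 without Het replicate 1. Camp, S100a8 and S100a9 each had their lowest Het value in Het replicate 1 and their highest in Het replicate 2. Ltf, lactoferrin, which sequesters iron, lay between 4.31 and 4.54 in KO cells, between 4.01 and 4.97 in Het cells and between 4.07 and 4.85 in WT cells. Mmp9, gelatinase B of tertiary granules, lay between 3.60 and 4.67 in KO cells, between 3.60 and 4.47 in Het cells and between 3.90 and 4.20 in WT cells. Neither gene separated the genotypes.

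The primary granule genes differed by less than 0.5 between every pair of genotypes. Mpo, myeloperoxidase, lay between 4.75 and 6.29 in KO cells, between 5.52 and 5.78 in Het cells and between 4.95 and 6.19 in WT cells. Prtn3, proteinase 3, lay between 6.17 and 7.07 in KO cells, between 6.44 and 6.68 in Het cells and between 6.04 and 6.29 in WT cells, so the Het arrays were all above the WT arrays and the KO arrays overlapped them. Its direct neighbour Elane, neutrophil elastase, lay between 4.28 and 4.52 in KO cells, between 4.68 and 4.81 in Het cells and between 4.19 and 4.89 in WT cells. Ctsg, cathepsin G, lay between 3.45 and 4.0 in KO cells, between 4.08 and 4.14 in Het cells and between 3.61 and 5.07 in WT cells. For Elane and Ctsg the KO arrays were all below the Het arrays, but both overlapped with WT. All KO and Het readings of Ctsg lay in the absent range.

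**Figure D2:**
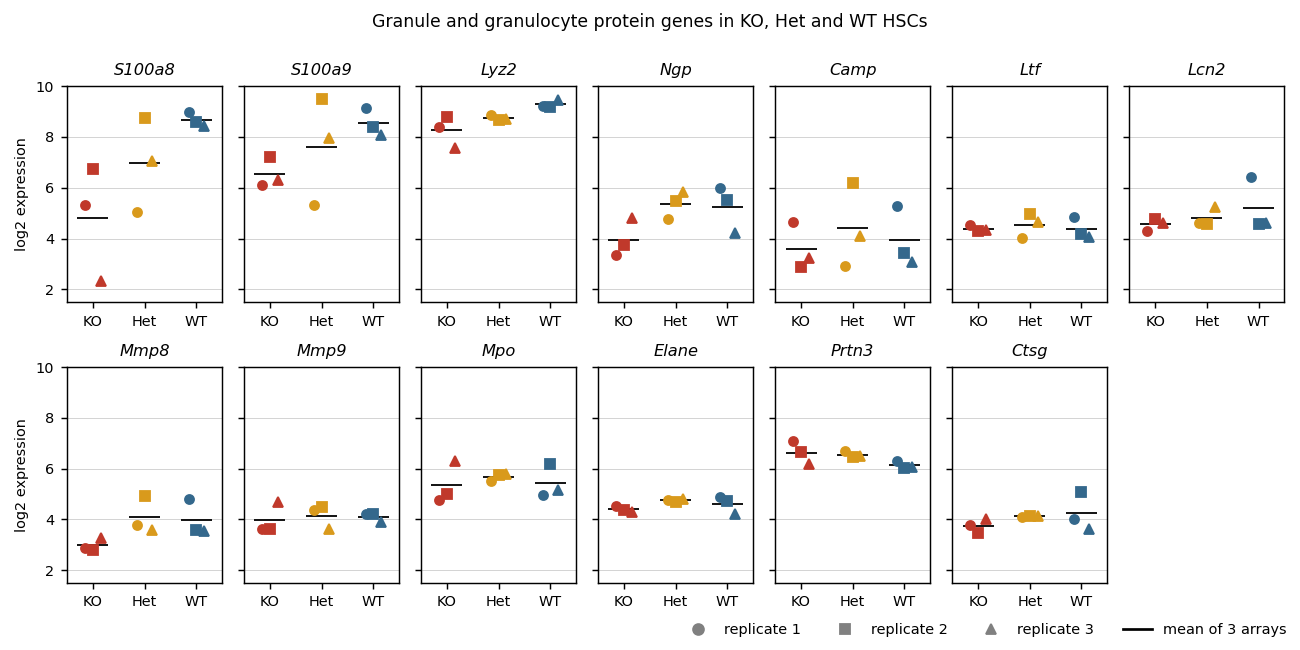
Log2 expression of the 13 granule members on each array, by genotype (KO, Het, WT from left to right); symbols give the replicate number and lines the mean of 3 arrays. S100a8, S100a9, Lyz2 and Mmp8 show KO arrays below all WT arrays, while the primary granule genes Mpo, Elane, Prtn3 and Ctsg overlap between KO and WT.

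The phagocyte receptor and lysosomal class had no common direction: 5 of its 10 members were higher and 5 lower in KO than in WT cells by their means, with a median difference of 0.03. It held the 1 member that changed. Aoah encodes acyloxyacyl hydrolase, an enzyme of phagocytes that strips acyl chains from bacterial lipopolysaccharide and so inactivates it. Aoah read 6.05, 5.80 and 5.94 in KO cells, 2.80, 3.16 and 4.23 in Het cells, and 3.60, 2.51 and 2.56 in WT cells. The 3 KO arrays lay close together and above all others, while the Het and WT arrays, apart from Het replicate 3 just above it, lay in the range of absent transcripts. Aoah rose in KO over WT cells (fitted log2 difference 3.04, SE 0.399, adjusted p = 0.0432). Since all WT readings lay in the absent range, the fold has only a bound: with the KO mean set against the top of that range, Aoah was at least 3.27-fold higher in KO cells. The fitted difference between KO and Het was 2.53 (SE 0.399, adjusted p = 0.206).

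The fitted Aoah difference did not rest on the array labelled KO replicate 3, being 3.04 with it and 3.035 without it, but the adjusted p was 0.0719 without it. Leaving out any array other than Het replicate 3 raised the adjusted p above the threshold, up to 0.243 without KO replicate 1, while the difference stayed between 2.85 and 3.40. Within female mice (1 KO and 2 WT arrays) the difference was 2.86, and within male mice (2 KO and 1 WT arrays) it was 3.42.

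Cd68, a heavily glycosylated membrane protein of macrophage lysosomes, read 8.03, 8.07 and 7.47 in KO cells, 6.16, 5.45 and 7.30 in Het cells, and 7.53, 6.10 and 5.06 in WT cells. The KO arrays were tight and stood above all Het arrays, but WT replicate 1 read within the KO range. KO and WT differed by 1.63 (SE 0.603, adjusted p = 0.557) and KO and Het by 1.55 (adjusted p = 0.998). Without the array labelled KO replicate 3, KO and WT differed by 1.82, without WT replicate 1 by 2.28 and without WT replicate 3 by 1.04.

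Itgam and Itgb2 encode the alpha and beta chains of the integrin CD11b/CD18 (Mac-1), a complement and adhesion receptor, and their differences had opposite signs. Itgam read 4.46, 4.57 and 6.10 in KO cells, 4.05, 4.03 and 5.31 in Het cells, and 4.08, 3.84 and 3.57 in WT cells. All KO arrays were above all WT arrays, and replicate 3 was the highest in both KO and Het cells. All WT readings lay in the absent range. With the KO mean set against the top of that range, Itgam was at least 1.77-fold higher by the mean (fitted difference 1.21, SE 0.473, adjusted p = 0.563). That mean rested in part on the array labelled KO replicate 3 at 6.10, and without that array the fitted difference was 0.69. KO and Het differed by 0.58 (adjusted p = 0.998), but by 0.05 without the array labelled KO replicate 3. In Het over WT cells it was at least 1.18-fold higher by the mean, through Het replicate 3 alone. Itgb2, whose product also pairs with other alpha chains of leukocytes, lay between 5.27 and 5.86 in KO cells, between 6.05 and 6.93 in Het cells and between 5.81 and 6.96 in WT cells. It was below all Het arrays in KO cells and overlapped with WT replicate 2, with differences of -0.99 from WT (SE 0.362, adjusted p = 0.556) and -0.84 from Het (adjusted p = 0.998).

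Fcgr2b, the inhibitory IgG receptor, lay between 3.97 and 4.5 in KO cells, between 4.28 and 4.84 in Het cells and between 4.62 and 5.37 in WT cells. KO and WT arrays did not overlap, and the difference was -0.73 (SE 0.272, adjusted p = 0.557). Its close relative Fcgr3, an activating IgG receptor, lay between 4.18 and 4.38 in KO cells, between 4.25 and 4.70 in Het cells and between 4.21 and 4.91 in WT cells. These genes are similar in sequence and separated by 1 coding gene on chromosome 1, so their probe sets may share signal. The remaining receptors differed by less than 0.5 in each comparison: Tlr4, the receptor of lipopolysaccharide, its co-receptor Cd14, Tlr2, a receptor of bacterial lipoproteins, and Cd33, a lectin that binds sialic acid. Tlr4 lay between 5.0 and 5.91 in KO cells, between 4.89 and 5.23 in Het cells and between 5.0 and 5.34 in WT cells. Tlr2 lay between 4.84 and 5.60 in KO cells, between 4.81 and 5.73 in Het cells and between 5.32 and 5.71 in WT cells. Cd14 and Cd33 stayed within the absent range on all 9 arrays.

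**Figure D3:**
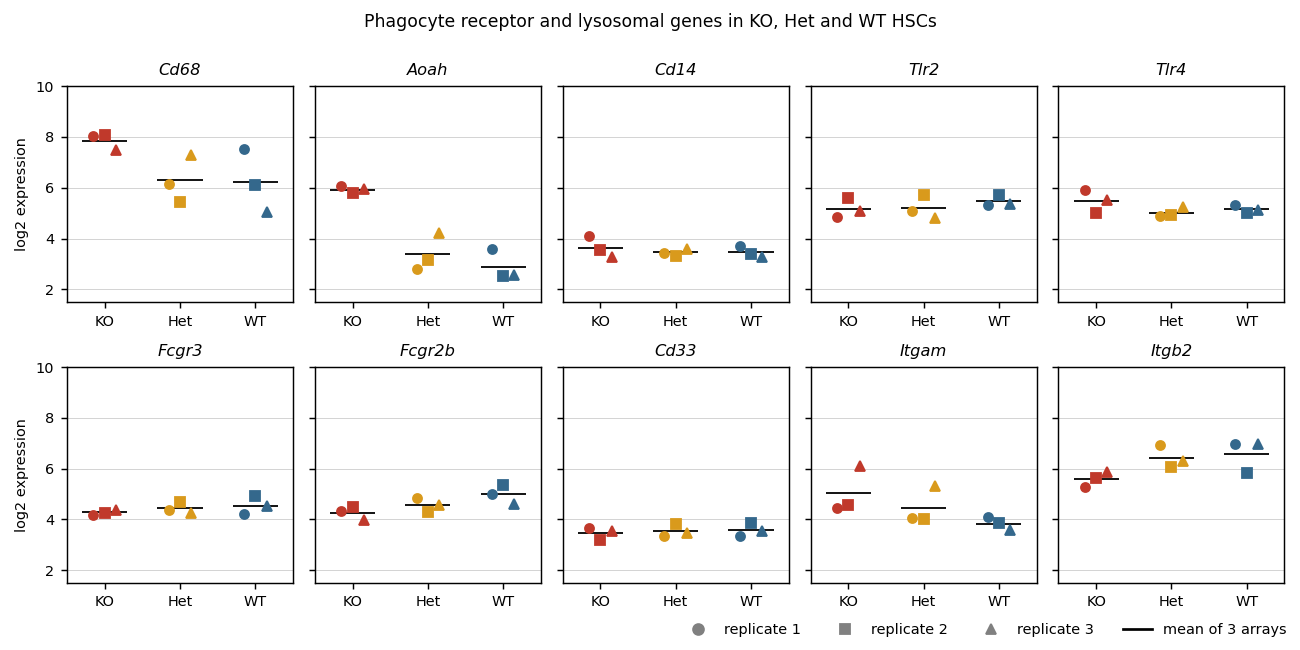
Log2 expression of the 10 phagocyte receptor and lysosomal members on each array, by genotype (KO, Het, WT from left to right); symbols give the replicate number and lines the mean of 3 arrays. Aoah is the 1 member for which all KO arrays, at 5.80 to 6.05, stand above all Het arrays, at up to 4.23, and all WT arrays, at up to 3.60.

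Setting the classes against each other, the mean log2 value of the 13 granule members was 4.87, 4.95 and 4.76 on the KO arrays, 4.98, 6.04 and 5.53 on the Het arrays, and 6.08, 5.67 and 5.26 on the WT arrays. That of the 10 phagocyte members was 5.08, 5.02 and 5.11 on the KO arrays, 4.59, 4.55 and 4.91 on the Het arrays, and 4.91, 4.65 and 4.46 on the WT arrays. The KO arrays thus lay below all other arrays for the granule mean and above all other arrays for the phagocyte mean. The further granulocyte and phagocyte genes listed below did not separate in this way. The mean of 19 further granulocyte genes differed by -0.04 between KO and WT, and that of 38 further phagocyte genes by 0.055. In both, the KO arrays overlapped the WT arrays. However, 6 of the 19 and 14 of the 38 read no higher than the top of the absent range on all 9 arrays, which limits how far these means could move. The granule mean minus the phagocyte mean was -0.21 ± 0.142 in KO cells, 0.84 ± 0.578 in Het cells and 0.996 ± 0.186 in WT cells (SD, n = 3 each). Only its differences between genotypes can be read, since probe sets of different genes are not on a common scale. The difference was -1.21 between KO and WT, -1.05 between KO and Het and -0.16 between Het and WT, with Het replicate 2 (1.49) above all WT arrays.

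This contrast rested on few genes. Without S100a8, S100a9, Aoah and Cd68, left out after their values were seen, it was -0.34 between KO and WT and -0.46 between KO and Het, and the KO arrays (0.12, 0.04 and 0.13) overlapped the WT arrays (0.79, 0.42 and 0.10). Leaving out members singly gave -1.36 (without Itgb2) to -0.91 (without Aoah) between KO and WT. It was -1.14 without the array labelled KO replicate 3, -1.34 within female mice and -1.16 within male mice. Between Het and WT it was 0.06 without Het replicate 1 and -0.49 without Het replicate 2. Counting Lyz2, which macrophages also make, with the phagocyte members gave -1.06.

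**Figure D4:**
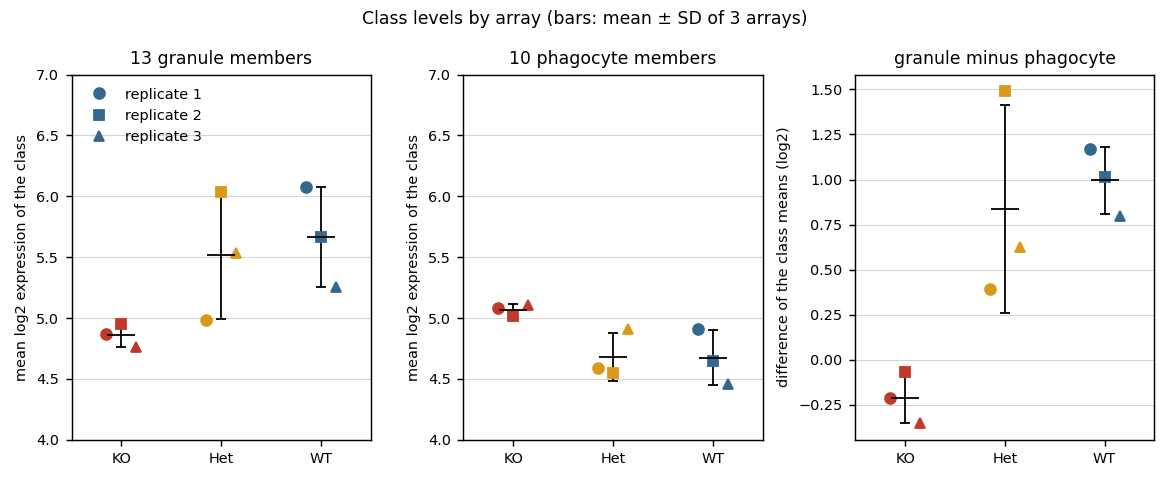
Mean log2 expression of the 13 granule members (left) and the 10 phagocyte members (middle), and their difference (right), on each array by genotype; bars give the mean and SD of 3 arrays. The KO arrays lie between 4.76 and 4.95 for the granule mean and between 5.02 and 5.11 for the phagocyte mean, outside the range of the Het and WT arrays in both.

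The oxidase, growth factor receptor and transcription factor members showed no called change. Cybb, the catalytic subunit of the superoxide-producing oxidase (gp91phox), read 3.11, 3.17 and 3.85 in KO cells, 3.60, 4.26 and 3.85 in Het cells, and 3.45, 3.72 and 3.49 in WT cells, within the absent range on all arrays but Het replicate 2. Its regulatory partner Ncf4 (p40phox) read 3.80, 3.64 and 4.01 in KO cells, 3.94, 3.92 and 4.07 in Het cells, and 3.68, 3.77 and 3.79 in WT cells. The Het arrays of Ncf4 were above the WT arrays with mean values of 3.98 and 3.75, and all its values were within the absent range.

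Csf2rb, the shared beta chain of the receptors for GM-CSF, IL-3 and IL-5, read 4.55, 4.91 and 4.27 in KO cells, 5.29, 3.54 and 4.67 in Het cells, and 5.27, 6.14 and 5.20 in WT cells. The KO arrays were below all WT arrays, and among the Het arrays replicate 1 alone reached the WT range. The differences from WT were -0.96 in KO cells (SE 0.433, adjusted p = 0.609) and -1.04 in Het cells (SE 0.433, adjusted p = 0.972), the second being -0.56 without Het replicate 2. Its near copy Csf2rb2, the mouse IL-3-specific chain, may share signal with it. Csf3r, the receptor of G-CSF, read 7.05, 6.73 and 5.41 in KO cells, 6.51, 5.57 and 6.00 in Het cells, and 4.85, 6.33 and 5.91 in WT cells. The genotypes overlapped, with KO and WT differing by 0.70 (adjusted p = 0.713), or by 1.19 without the array labelled KO replicate 3 and by 0.37 and 0.28 without KO replicate 1 and without WT replicate 1. Csf1r, the receptor of M-CSF on monocytes and macrophages, read 3.99, 3.33 and 4.11 in KO cells, 4.43, 3.58 and 3.87 in Het cells, and 4.70, 4.16 and 4.03 in WT cells. Its genotypes overlapped. Csf2ra, the alpha chain of the GM-CSF receptor, stayed between 5.66 and 6.08 on all arrays.

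Of the transcription factors, Cebpa, which starts the granulocyte programme, read 2.71, 2.87 and 3.50 in KO cells, 3.54, 2.95 and 3.59 in Het cells, and 3.64, 3.71 and 3.07 in WT cells, within the absent range, and it failed the filter and was not tested. Spi1, which encodes PU.1, read 7.08, 6.91 and 6.29 in KO cells, 6.48, 6.79 and 7.18 in Het cells, and 6.28, 6.64 and 6.29 in WT cells. It was well above the absent range everywhere and overlapped between genotypes. Cebpe, the regulator of the secondary granule genes, read 3.79, 3.97 and 4.28 in KO cells, 4.29, 4.28 and 3.84 in Het cells, and 3.74, 4.24 and 4.38 in WT cells. Cebpb, active in emergency granulopoiesis and in monocytes, ranged from 4.58 to 6.03 in KO cells, from 5.23 to 6.37 in Het cells and from 4.91 to 6.0 in WT cells. Both overlapped between genotypes, and none of the 4 factors differed by 0.5 or more in any comparison.

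Plac8, a small cysteine-rich protein of myeloid and other blood cells, read 7.05, 6.22 and 5.92 in KO cells, 6.54, 7.34 and 6.70 in Het cells, and 7.35, 5.68 and 8.17 in WT cells. The genotypes overlapped, and KO and WT differed by -0.67 (adjusted p = 0.742), or by -0.12 without WT replicate 3 and by -1.36 without WT replicate 2. Ly6c2, a surface protein of inflammatory monocytes with a near-identical copy, Ly6c1, that may share its signal, read 4.19, 2.32 and 3.16 in KO cells, 4.69, 3.78 and 2.92 in Het cells, and 2.83, 3.56 and 4.07 in WT cells. All KO and WT readings lay in the absent range, and all 3 genotypes overlapped.

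**Figure D5:**
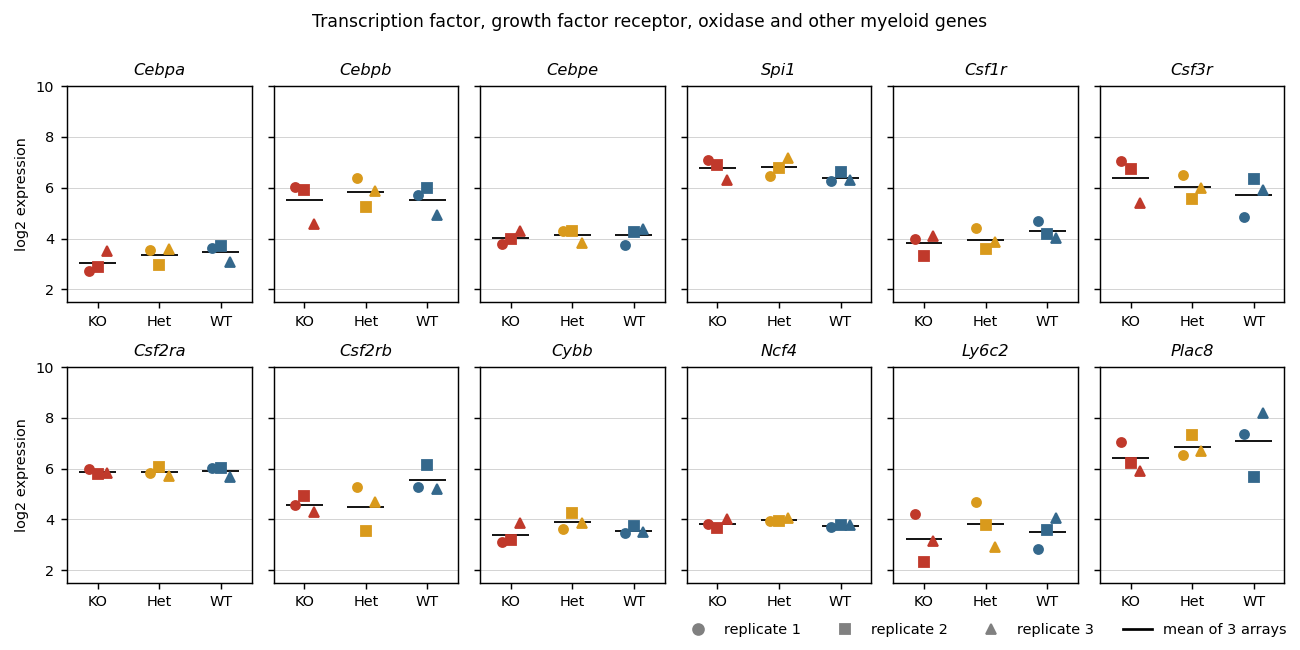
Log2 expression of the transcription factor, colony-stimulating factor receptor, oxidase and other myeloid members on each array, by genotype (KO, Het, WT from left to right); symbols give the replicate number and lines the mean of 3 arrays. Csf2rb is the 1 member shown whose KO arrays, at 4.27 to 4.91, lie below all WT arrays, at 5.20 to 6.14.

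Between Het and WT cells 0 of the 34 tested members were called by limma, where 0% of all genes were. At an unadjusted p under 0.05, 1 member was lower (Csf2rb) and 0 were higher, where 1.77% and 3.12% of all genes were. The arrays did not overlap for 2 members that were higher (Prtn3 and Ncf4) and 1 that was lower (Lyz2), where 4.51% and 3.9% of all genes did not overlap, so these counts were close to the background. Between KO and Het cells 0 members were called (0% of all genes), 2 were higher and 3 lower at an unadjusted p under 0.05 (2.61% and 1.95% of all genes). The KO and Het arrays did not overlap for 2 members that were higher (Aoah and Cd68) and 4 that were lower (Mmp8, Elane, Ctsg and Itgb2), where 4.42% and 5.4% of all genes did not overlap. The median difference between KO and Het was -0.38 for the granule members and 0.075 for the phagocyte members, beside -0.02 over all genes tested. KO against WT and KO against Het share the KO arrays.

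Further genes of the same functions, in lists assembled for this comparison, give the surroundings of these values. Among 38 further phagocyte genes, 28 were tested and 1 was called between KO and WT, where 0.0421% of all genes tested were. Of the 28, 2 were higher and 2 lower at an unadjusted p under 0.05 (5.4% and 2.81% of all genes tested). The called gene was Tyrobp (DAP12), the signalling adaptor of many activating receptors of myeloid and NK cells. Tyrobp read 8.89, 7.99 and 9.78 in KO cells, 6.07, 5.56 and 6.69 in Het cells, and 5.66, 5.66 and 5.61 in WT cells. The KO arrays stood apart from all others, and KO and WT differed by 3.24 (SE 0.426, adjusted p = 0.0432). With single arrays left out, an alternative added after seeing the data, the difference stayed between 2.80 and 3.69 with adjusted p from 0.0308 to 0.243 in limma. The call was lost without KO replicate 1, Het replicate 1, Het replicate 3 or any 1 of the WT arrays. It was also lost after a further quantile normalization (adjusted p = 0.0552), with the interquartile range as a covariate (0.179), with only the compared genotypes (0.107) and with a replicate block (0.0591). Fcer1g, the adaptor with the same kind of signalling motif that carries the signal of Fcgr3, read 8.83, 8.22 and 8.40 in KO cells, 7.43, 7.67 and 8.11 in Het cells, and 6.79, 6.84 and 6.41 in WT cells. The 3 genotypes did not overlap, in the order KO, Het, WT, with a difference between KO and WT of 1.80 (SE 0.267, adjusted p = 0.0566) that missed the threshold. The 2 lower genes were Npc2, a cholesterol carrier of lysosomes, at -0.84 (adjusted p = 0.563), and Itgal, the alpha chain of the integrin LFA-1, at -0.47 (adjusted p = 0.605). By their means 16 of the 38 were higher and 22 lower, with a median difference of -0.05.

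Among 20 further granulocyte genes, 15 were tested and 0 were called by limma. Of the 15, 3 were higher and 2 lower at an unadjusted p under 0.05 (5.4% and 2.81% of all genes tested). Hk3, the hexokinase of myeloid cells, read 6.20, 6.54 and 6.66 in KO cells, 5.06, 5.12 and 4.62 in Het cells, and 4.53, 5.08 and 4.49 in WT cells, with a difference between KO and WT of 1.77 (adjusted p = 0.0566). Igsf6, an immunoglobulin superfamily receptor, differed by 1.40 (adjusted p = 0.413) and Padi4, which citrullinates histones in neutrophils, by 1.14 (adjusted p = 0.558). The 2 lower genes were Chil3, a chitinase-like secreted protein, at -1.61 (adjusted p = 0.543), and Serpinb1a, an inhibitor of neutrophil serine proteases, at -1.07 (adjusted p = 0.449). KO replicates 2 and 3 of Chil3 (3.77 and 2.26) and its KO mean (3.58) lay in the absent range, which limits what the size of its difference means. In this list the KO and WT arrays did not overlap for 3 genes that were higher and 4 that were lower. Over all genes tested these shares were 6.51% and 7.32%. The genes were the 5 just named, with Cd177 and Fcnb, both lower, of which Fcnb failed the filter. Of the 19 with a probe set, 7 were higher and 12 lower by their means, with a median difference of -0.28. The signs of Chil3, Serpinb1a, Cd177 and Fcnb were thus those of S100a8, S100a9 and Lyz2, and those of Hk3, Igsf6 and Padi4 were opposite.

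The remaining lists held 0 called genes: 5 tested oxidase genes (0 at an unadjusted p under 0.05), 10 tested genes of colony-stimulating factor signalling (2 higher and 1 lower) and 11 tested myeloid transcription factors (1 higher). Over all genes tested, 5.4% were higher and 2.81% lower at that p. With the smallest unadjusted p for KO against WT in each, Rac2 and Ncf1 of the oxidase differed by 0.65 and -0.29 (adjusted p = 0.697 and 0.779). Stat3, which signals from Csf3r, differed by 0.78 (adjusted p = 0.429), and the ligand Csf1 read 4.08 to 5.26 in KO cells and 3.63 to 3.80 in WT cells, the WT readings lying in the absent range. The transcription factors Jdp2 and Tfec differed by 0.88 and 1.56 (adjusted p = 0.540 and 0.648), where WT replicate 1 read 4.70 for Tfec and the other WT arrays 8.04 and 8.13.

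The mean levels of mature myeloid markers overlapped between the genotypes. The 9 mature neutrophil markers had array means of 3.30 to 3.73 in KO cells, 3.48 to 3.91 in Het cells and 3.46 to 3.73 in WT cells, 5 of them stayed in the absent range on every array, and Ly6g, Retnlg and Stfa2l1 read between 1.71 and 3.76. Cxcr2, the highest of them by mean, lay between 5.0 and 5.54 in KO cells and between 4.96 and 5.41 in WT cells. The 9 monocyte markers had array means of 3.95 to 4.29 in KO cells, 3.94 to 4.09 in Het cells and 3.98 to 4.42 in WT cells, with Cx3cr1 at 5.10 to 5.16 in KO cells and 5.05 to 5.87 in WT cells, and 5 of the 9 stayed in the absent range. The 12 macrophage markers had means of 3.72 to 4.27 in KO cells, 3.84 to 4.11 in Het cells and 3.85 to 4.28 in WT cells, with C1qa at 4.57 to 5.31 in KO cells and 5.02 to 5.61 in WT cells.

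The marker lists of other cells had the following values beside these genes. The HSC list held Kit, Slamf1, Procr, Mecom, Hlf, Fgd5, Hoxb5, Mllt3, Meis1 and Cd34. These genes were higher in KO than in WT cells in 10 of 10 cases (median difference 1.39, 0 called by limma). Of the 10, 7 were higher at an unadjusted p under 0.05, where 5.4% of all genes tested were. Meis1 lay at 9.09 to 9.85 in KO cells and 8.50 to 9.49 in WT cells. The means of 6 dendritic cell markers were 4.14 to 4.40 in KO cells, 4.40 to 4.72 in Het cells and 4.67 to 4.78 in WT cells. Those of 5 megakaryocyte markers were 6.33 to 7.34 in KO cells, 6.05 to 7.13 in Het cells and 5.81 to 6.5 in WT cells, with Pf4 at 6.58 to 8.82 in KO cells and 8.05 to 9.60 in WT cells. By their means 3 of these 5 were higher in KO than in WT cells (median difference 0.71) and 2, Pf4 among them, were lower. The means of 5 B cell markers were 3.82 to 4.5 in KO cells, 4.35 to 4.85 in Het cells and 4.48 to 4.71 in WT cells. The highest marker by mean in these lists was Bst2 for dendritic cells (5.37 to 7.22 in KO cells and 6.40 to 7.10 in WT cells) and Ighm for B cells (5.05 to 6.58 in KO cells and 5.64 to 6.49 in WT cells). The lists of mast cell, T and NK cell and erythroid markers overlapped between KO and WT and differed by -0.10 to -0.03 in their means. In these lists Gata2 read 7.81 to 8.60 in KO cells and 5.13 to 8.22 in WT cells, Nkg7 4.81 to 5.08 in KO cells and 5.96 to 7.87 in WT cells, and Car1 5.16 to 9.36 in KO cells and 7.73 to 9.49 in WT cells. Of the 6 mast cell markers, 4 were lower and 2, Gata2 among them, higher in KO than in WT cells by their means. Klrb1c, the NK1.1 receptor of the T and NK cell list, chosen after its values were seen, went the other way from Nkg7, at 6.04 to 7.07 in KO cells and 3.77 to 4.95 in WT cells (difference 2.18, adjusted p = 0.168). The part of these cell markers in the values of the granule and phagocyte members was not tested.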

How the data were processed

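Per the labels' protocols, RNA of sorted HSCs was amplified by Ribo-SPIA (NuGEN Ovation Pico) and run on 9 Mouse Gene 2.0 ST arrays of Affymetrix. The deposited values are log2 expression from RMA, which the authors ran per the submitters' processing notes, with its version, settings and build not given in the sources used here. RMA normalizes between arrays, so values are relative to the whole array. The platform annotation gave 1 symbol to 23521 of 41345 probe sets and several to 1814, and did not list 16010. Per gene the probe set with the highest mean was kept (22180 genes). Genes below the 25th percentile of mean level (3.31) were dropped, and 16636 were fitted with limma 3.58.1 (R 4.3.3, lmFit and eBayes, 1 mean per genotype, 6 residual degrees of freedom), with Benjamini-Hochberg adjustment over all of them and a threshold of 0.05. The script was tested on simulated data. Depth is not defined for arrays, and 3 arrays per group limit the precision (median SE 0.298). Sex was read from Xist and Y-linked genes (1 KO, 1 Het and 2 WT females). Every member is named. Values on every array are given for up to 3 members per class by their absolute difference between KO and WT, for called members, and for the further genes with the smallest p. The members and lists were chosen with earlier results of these data known. The labels call the replicates biological, and the p-values measure the spread between them.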

Additional observations from a re-analysis of the deposited data

How the results depend on the processing

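Aoah was called in KO against WT without a filter, with sex as a term, with array weights, with a trended robust prior and with the mean of probe sets. The count of called members was 0 with a filter at the median level (which removes Aoah), after a further quantile normalization, with each array's interquartile range as a covariate, with only the compared genotypes in the fit, with a replicate block, and without both WT replicate 1 and KO replicate 3. Leaving out single arrays gave 0 to 1. The Aoah difference stayed between 2.85 and 3.40, with adjusted p from 0.0139 to 0.243. The count over all genes was 4, 3, 0, 1, 0 and 2 in the settings just named in that order, 3 with sex as a term, 24 with array weights, and 0 to 15 over single arrays left out. Without S100a8, S100a9, Aoah and Cd68, an alternative chosen after seeing the data, the contrast of granule and phagocyte members was -0.34 between KO and WT and -0.46 between KO and Het. Leaving out single arrays moved S100a9 between Het and WT over -1.89 to 0.20 and Camp between KO and Het over -1.55 to 0.0883, reversing them without Het replicate 1 and Het replicate 2. The granule median between KO and WT ranged from -0.81 to -0.32 in the same way (without WT replicate 3 and without WT replicate 1). The cause of these changes was not tested. Same-numbered arrays correlated at -0.185 to 0.229 in their deviations from the group means, and differently numbered arrays at -0.160 to 0.196. A pairing of the mice by number was thus not seen, but these values cannot exclude one. In the paired fit with the replicate block Aoah differed by 3.04 (adjusted p = 0.0788). Of the other alternatives, 597 for named members kept direction and side of the threshold. Only Aoah between KO and WT was under the threshold in the main fit, so the other differences had no call to lose. Leaving out an array of the genotype not compared also leaves a difference as it was. A further 229 for counts and medians moved by less than 1.5 times or by less than 1 SD between arrays, 12 of them with a change of sign, all in medians or contrasts of 0.16 or less. The number of arrays and signals within the absent range limit what can be seen for Cd14, Cd33, Cybb, Ncf4 and Cebpa, and in part for others such as Ngp, Mmp8 and Ctsg.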
